A study of Mus musculus with 6 samples.

Results

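The genes described here are 48 genes of mitosis: the kinases and cyclins that start it, the chromosomal passenger complex, the spindle checkpoint, the kinetochore, condensin, the spindle and cytokinesis machinery, and the factors that transcribe these genes. They were chosen by symbol, with earlier results of these data known, so their counts below describe the list and are not independent evidence of its direction. All 48 were found among the 18059 genes of the deposited tables, and all 48 passed the filter on low counts, with 33 to 3125 counts per gene and library.

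Cells enter mitosis when cyclin-dependent kinase 1, bound to A and B type cyclins, is switched on, and Aurora and Polo-like kinases then drive spindle assembly and chromosome alignment. Kinetochores, built on centromeric chromatin that holds the histone variant CENP-A, attach chromosomes to microtubules, and the spindle checkpoint holds back the ubiquitin ligase APC/C until all of them are attached. Most of these genes are transcribed late in the cell cycle, through the MuvB complex with B-MYB and FOXM1, and are repressed in resting cells by the related DREAM complex, which reads a short promoter element named CHR. Fibroblasts of the young heart still divide in culture, and platelet-derived growth factors are known as mitogens of such connective tissue cells.

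Messenger RNA was measured in primary fibroblasts cultured from hearts of C57BL/6 mice aged 1 to 2 weeks, in medium with 15% serum. The control group received saline for 12 hours and the other group PDGF-DD, the dimer of platelet-derived growth factor D, for 12 hours, at a concentration the labels give as 20 µM. Each group has 3 libraries. The labels contradict each other on genotype: by the growth protocol every culture came from global PDGF-D KO mice, whereas the genotype field reads control for the saline samples and PDGF-D -/- for the PDGF-DD samples, so that genotype and treatment cannot be told apart if that field is right. Nothing in the labels says that the libraries of a group are separate cultures or animals, and the p-values below rest on the spread among 3 libraries, whose source may be technical.

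The 6 libraries held between 21221051 and 21371753 counts. Reads of Pdgfd were present in all of them, with 118, 114 and 91 counts in control and 69, 72 and 82 with PDGF-DD, a lower level with PDGF-DD (edgeR log2 fold change -0.55, adjusted p = 0.00245) that does not show whether the deleted part of the gene was read. Control replicate 1 stood apart from the other control libraries (chi-square per degree of freedom 5.11 and 5.71, against 2.48 between those 2). All 10 fibroblast markers averaged above 1 CPM, as did all 10 endothelial and all 6 epicardial markers. Summed fibroblast markers stood at 46559 to 48647 CPM in control and 41460 to 42206 CPM with PDGF-DD. Most of this sum came from the collagen genes Col1a1, Col1a2 and Col3a1. Their mean levels were 20773, 11522 and 11330 CPM in control and 17880, 10543 and 9274 CPM with PDGF-DD. Summed macrophage markers stood at 203 to 222 and 185 to 192 CPM, endothelial markers at 266 to 286 and 246 to 255 CPM, cardiomyocyte markers at 160.0 to 171 and 116 to 132 CPM, smooth muscle and pericyte markers at 7138 to 7673 and 5926 to 6047 CPM, and epicardial markers at 78.2 to 88.1 and 78.6 to 83.1 CPM. Most of the macrophage, cardiomyocyte and smooth muscle sums came from Lyz2, Tnnt2 and Acta2. Mean levels in control and with PDGF-DD were 139 and 121 CPM for Lyz2, 156 and 115 CPM for Tnnt2, and 5327 and 4108 CPM for Acta2. These sums therefore rest largely on single genes. No marker was at 0 in all 6 libraries, and 8 of the 10 cardiomyocyte markers averaged under 1 CPM. Of the fibroblast markers 1 rose (Pdgfra) and 6 of 10 fell, among them Tcf21 and Lum with log2 fold changes of -0.60 and -0.43. Over all tested genes 19.1% rose and 17.4% fell by the test given below. Of the 9 smooth muscle and pericyte markers that were tested 1 rose (Cspg4) and 5 fell, among them Myh11 with -1.02. Of the 9 macrophage, 10 endothelial, 7 cardiomyocyte and 6 epicardial markers that were tested 0 rose, while 1, 1, 3 and 1 fell. The part of these cells in the results below was not tested.

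Mitotic transcripts were higher with PDGF-DD, by a small margin. CPM is a gene's count scaled to a common library total, with TMM factors. A gene is said to rise or fall where edgeR's quasi-likelihood test gave an adjusted p under 0.05 over all 13270 genes tested, and the log2 fold change is positive where PDGF-DD was higher. By this test 31 of the 48 genes rose, 17 did not pass and 0 fell. In the background 19.1% of all tested genes rose and 17.4% fell. At an unadjusted p under 0.05 the number that were lower was 1, Ccnb2, and DESeq2 and limma called 0 lower. The median log2 fold change was 0.22, against -0.01 over all tested genes. Among the genes that rose the change lay between 9.65% for Tpx2 and 54.2% for Mybl2, with a median of 23.0%. Only 9 of them rose 1.3-fold or more and 1 rose 1.5-fold or more.

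**Figure D1:**
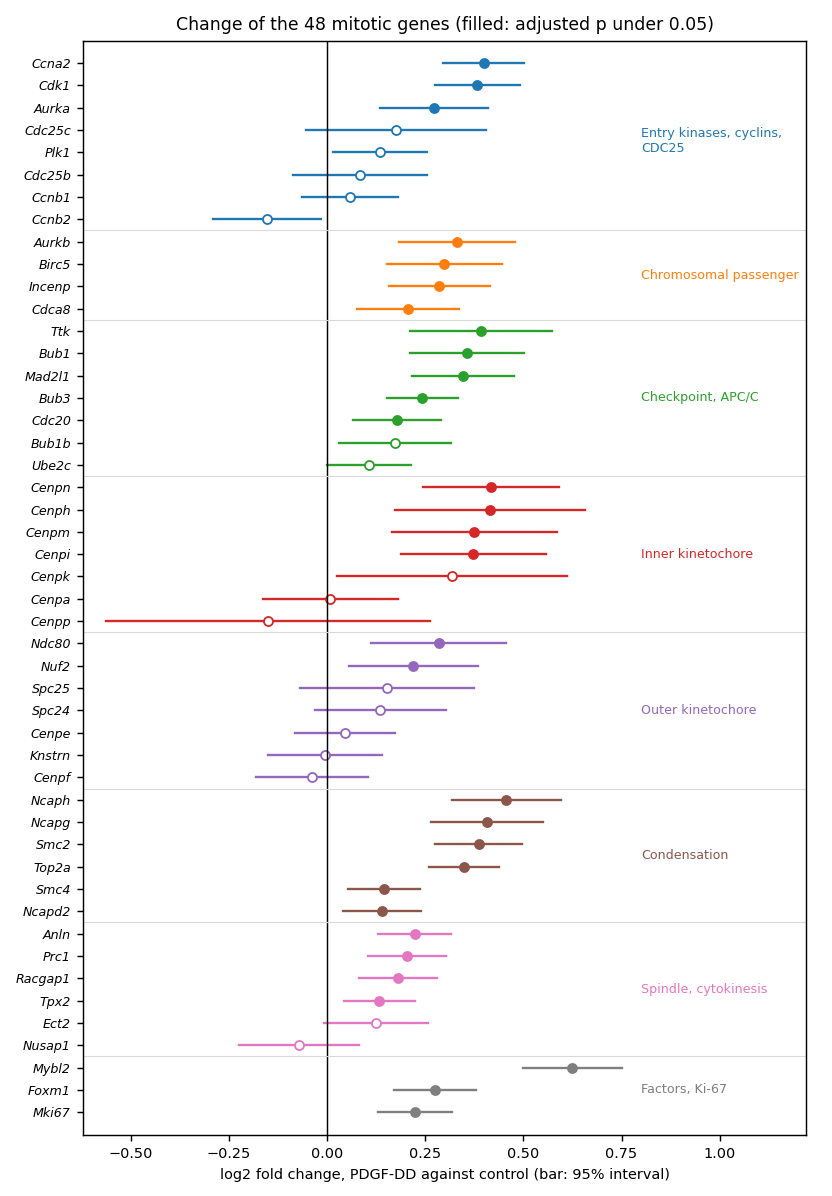
Log2 fold change of each of the 48 genes (x axis, PDGF-DD against control, 3 libraries each) with its 95% interval, by role; filled points passed the test. Mybl2 lies farthest to the right at 0.62, and Ccnb2 and Cenpp lie farthest to the left at -0.15 and -0.15.

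Summed over the 48 genes, the level was 1669, 1615 and 1640.3 CPM in the control libraries and 1921, 1864 and 1980 CPM in the PDGF-DD libraries. Every PDGF-DD library was above every control library. The 48 genes took up between 0.161% and 0.167% of all counts in control and between 0.187% and 0.199% with PDGF-DD. In bulk RNA more dividing cells and more of these transcripts in each dividing cell cannot be told apart. For single genes, every PDGF-DD library exceeded every control library in 33 of the 48, against 23.6% of all tested genes, and the reverse held for 0 of the 48, against 23.5%.

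Levels per transcript length spanned a wide range. By the deposited FPKM, averaged over the 6 libraries, the highest of the 48 were Ube2c at 54.7, Bub3 at 46.6, Anln at 27.5, Birc5 at 26.4 and Smc4 at 25.6 FPKM. The lowest were Cenpp at 1.94, Cenpf at 2.11 and Cdc25c at 3.08 FPKM, and the median was 10.4 FPKM.

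Of 8 kinases, cyclins and phosphatases of mitotic entry, the 3 that rose were Ccna2, Cdk1 and Aurka, and both B type cyclins were among the 5 that did not pass. Ccna2 (Entrez gene 12428), which encodes cyclin A2, a partner of CDK2 in S phase and of CDK1 later, stood at 50.6, 49.0 and 55.6 CPM in control and 68.4, 66.6 and 69.6 CPM with PDGF-DD. The groups were well apart (edgeR log2 fold change 0.40 with SE 0.05 and adjusted p = 6.28e-07). Cdk1 (Entrez gene 12534), the kinase itself, stood at 52.3, 47.0 and 46.0 CPM in control and 61.6, 61.8 and 66.1 CPM with PDGF-DD. Its lowest PDGF-DD library lay above its highest control library by more than the control libraries differed among themselves (edgeR log2 fold change 0.38 with SE 0.05 and adjusted p = 2.33e-06). Aurka, the centrosomal Aurora kinase, was higher by 0.27 on the log2 scale (by edgeR, adjusted p = 0.00217).

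Ccnb2 (Entrez gene 12442), which encodes cyclin B2 and was the most abundant of the 8 per length at 19.4 FPKM, stood at 31.5, 28.9 and 30.9 CPM in control and 24.5, 29.2 and 28.4 CPM with PDGF-DD. PDGF-DD replicate 1 was the lowest library, and PDGF-DD replicate 2 overlapped the control range (edgeR log2 fold change -0.15 with SE 0.07 and adjusted p = 0.0784). Its 95% interval ran from -0.29 to -0.01 and lay below 0, although the adjusted p missed the threshold. It passed as lower under upper quartile scaling (log2 fold change -0.17, by edgeR adjusted p = 0.0484) and among genes of at least 5 CPM (log2 fold change -0.17, by edgeR adjusted p = 0.0479), and over the alternatives its adjusted p ran up to 0.47. Ccnb1, which encodes cyclin B1, stood at 31.2, 33.0 and 31.6 CPM in control and 32.1, 35.6 and 32.0 CPM with PDGF-DD, with overlapping groups and a 95% interval of -0.06 to 0.18. The interval of Ccnb1 ended below the lower ends of those of Cdk1 and Ccna2, 0.27 and 0.29. Here and below, genes whose intervals are set side by side were picked by their values. No test between genes was made, and the intervals are not adjusted for the number of genes. Plk1, the Polo-like kinase, had a log2 fold change of 0.13 (by edgeR, adjusted p = 0.0742) and passed only when control replicate 3 was left out (by edgeR, adjusted p = 0.0277, and as high as 0.372 in other alternatives). The CDC25 phosphatases remove the inhibitory phosphates from CDK1, and the intervals of Cdc25b and Cdc25c, -0.09 to 0.26 and -0.05 to 0.40, both included 0.

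All 4 genes of the chromosomal passenger complex rose. This complex corrects faulty attachments at the centromere and later works at the midzone. Aurkb (Entrez gene 20877), its kinase, stood at 18.6, 16.3 and 16.6 CPM in control and 20.5, 22.8 and 21.5 CPM with PDGF-DD (edgeR log2 fold change 0.33 with SE 0.07 and adjusted p = 0.000624). Incenp (Entrez gene 16319), the scaffold, stood at 36.3, 35.1 and 42.6 CPM in control and 44.7, 46.4 and 47.9 CPM with PDGF-DD (edgeR log2 fold change 0.29 with SE 0.06 and adjusted p = 0.000869). Birc5 (Entrez gene 11799), which encodes survivin and was the most abundant of the 4 per length, stood at 27.3, 25.0 and 22.5 CPM in control and 33.0, 29.1 and 30.0 CPM with PDGF-DD (edgeR log2 fold change 0.30 with SE 0.07 and adjusted p = 0.00152). For each of these genes every PDGF-DD library was above every control library. Cdca8, which encodes borealin, rose least (edgeR log2 fold change 0.21 with SE 0.06 and adjusted p = 0.0115), a call lost without PDGF-DD replicate 3 (by edgeR, adjusted p = 0.0705, and 0.00499 at the lowest over the alternatives).

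Among 7 genes of the spindle checkpoint and its target, 5 rose. Bub3 (Entrez gene 12237), which docks the checkpoint kinases on the kinetochore, stood at 90.5, 85.0 and 83.0 CPM in control and 102, 100.4 and 104 CPM with PDGF-DD (edgeR log2 fold change 0.24 with SE 0.04 and adjusted p = 8.28e-05). Mad2l1 (Entrez gene 56150), which encodes MAD2, the inhibitor of CDC20, stood at 32.4, 28.2 and 28.6 CPM in control and 38.1, 35.5 and 39.9 CPM with PDGF-DD (edgeR log2 fold change 0.35 with SE 0.06 and adjusted p = 8.99e-05). The 3 control libraries of both genes lay below all PDGF-DD libraries. The checkpoint kinase genes Bub1 and Ttk rose by 0.36 and 0.39 on the log2 scale. Cdc20, the APC/C activator that the checkpoint holds, rose by 0.18 on the log2 scale (by edgeR, adjusted p = 0.0115), a call lost without PDGF-DD replicate 3 (by edgeR, adjusted p = 0.0652, and 0.00517 at the lowest over the alternatives).

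Ube2c (Entrez gene 68612), the ubiquitin-conjugating enzyme of the APC/C and the most abundant of all 48 genes per length, stood at 49.6, 43.7 and 46.1 CPM in control and 49.4, 49.99 and 50.8 CPM with PDGF-DD. The control range reached into the PDGF-DD range through control replicate 1 (edgeR log2 fold change 0.11 with SE 0.05 and adjusted p = 0.114). Without that library it passed as higher (log2 fold change 0.16, by edgeR adjusted p = 0.0214, and as high as 0.419 in other alternatives). Bub1b, which encodes the checkpoint protein BUBR1, just missed the threshold (edgeR log2 fold change 0.17 with SE 0.07 and adjusted p = 0.0532). It passed under 4 of 14 alternatives, among them total count scaling (by edgeR, adjusted p = 0.0396), with adjusted p-values between 0.0269 and 0.218 over all of them.

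Of 7 genes of the inner kinetochore 4 rose, all of them subunits of the constitutive centromere network that sits on CENP-A chromatin. Cenpk and Cenpp, which belong to the same network, did not pass. Cenpn (Entrez gene 72155), which binds the CENP-A nucleosome, stood at 11.9, 10.8 and 13.4 CPM in control and 17.0, 14.9 and 16.4 CPM with PDGF-DD (edgeR log2 fold change 0.42 with SE 0.08 and adjusted p = 0.000285). Cenpi (Entrez gene 102920) stood at 9.90, 9.16 and 9.22 CPM in control and 13.2, 10.9 and 12.4 CPM with PDGF-DD (edgeR log2 fold change 0.37 with SE 0.09 and adjusted p = 0.00172). For both genes the PDGF-DD libraries were higher throughout. Cenph and Cenpm rose by 0.41 and 0.38 on the log2 scale, but the call of Cenph was lost without control replicate 2 (by edgeR, adjusted p = 0.0519) or PDGF-DD replicate 1 (0.0521), its lowest adjusted p under any alternative being 0.000601.

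Cenpa (Entrez gene 12615), the centromeric histone variant itself and the most abundant of the 7 per length, stood at 23.5, 20.9 and 18.7 CPM in control and 19.3, 23.1 and 21.1 CPM with PDGF-DD. The libraries of both groups interleaved (edgeR log2 fold change 0.01 with SE 0.08 and adjusted p = 0.947), and the sign of this value changed under 5 of 14 alternatives, upper quartile scaling among them. The 95% interval of Cenpa, -0.16 to 0.18, ended below the start of that of Cenpn at 0.24, the difference between these genes not being tested. Cenpk had a log2 fold change of 0.32 that rested on 80 to 132 counts per library, and it passed without PDGF-DD replicate 2 (log2 fold change 0.48, by edgeR adjusted p = 0.0109) and in limma on TPM (adjusted p = 0.0135, against 0.0834 by edgeR), with adjusted p-values up to 0.39 otherwise. Cenpp was read with only 33 to 52 counts per library, and its 95% interval of -0.56 to 0.26 was the widest of the 48. In RefSeq its gene body spans the matrix genes Ogn, Omd, Aspn and Ecm2, and without a known strand setting reads of these could be shared.

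Of 7 genes of the outer kinetochore and its corona 2 rose. Ndc80 (Entrez gene 67052), the subunit that binds microtubules, stood at 11.2, 10.7 and 11.8 CPM in control and 13.6, 12.7 and 14.8 CPM with PDGF-DD, with no overlap (edgeR log2 fold change 0.28 with SE 0.08 and adjusted p = 0.00856). Its partner Nuf2 (Entrez gene 66977) stood at 20.0, 17.0 and 20.5 CPM in control and 22.0, 20.5 and 24.5 CPM with PDGF-DD, and PDGF-DD replicate 2 reached into the control range (edgeR log2 fold change 0.22 with SE 0.08 and adjusted p = 0.0324). The call of Nuf2 was lost under 6 of 14 alternatives, among them DESeq2 (adjusted p = 0.0819) and upper quartile scaling (by edgeR, adjusted p = 0.0541), its adjusted p lying between 0.00909 and 0.212. That of Ndc80 was lost only without PDGF-DD replicate 3 (by edgeR, adjusted p = 0.0639, and 0.00408 at the lowest).

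The other subunits of the same NDC80 complex, Spc24 and Spc25, did not pass. Spc25 (Entrez gene 66442), the most abundant of the 7 per length, stood at 15.7, 11.9 and 11.6 CPM in control and 13.3, 15.0 and 15.2 CPM with PDGF-DD. Control replicate 1 was the highest of all 6 libraries for this gene (edgeR log2 fold change 0.15 with SE 0.10 and adjusted p = 0.277), and without it Spc25 passed as higher (log2 fold change 0.31, by edgeR adjusted p = 0.00667, and as high as 0.643 in other alternatives). The large corona proteins CENP-E, a kinesin, and CENP-F did not pass, with 95% intervals of -0.08 to 0.17 for Cenpe and -0.18 to 0.11 for Cenpf. Knstrn, which encodes a microtubule-binding protein of spindle and kinetochore, stood at 21.2, 20.0 and 19.8 CPM in control and 20.5, 18.6 and 21.7 CPM with PDGF-DD with a 95% interval of -0.15 to 0.14. The sign of Knstrn changed under 4 alternatives, total count scaling among them, and that of Cenpf under 1.

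Every one of the 6 genes of chromosome condensation rose. Top2a (Entrez gene 21973), topoisomerase II alpha, which unlinks sister DNA molecules, stood at 95.4, 93.3 and 89.6 CPM in control and 121, 114 and 119.96 CPM with PDGF-DD (edgeR log2 fold change 0.35 with SE 0.04 and adjusted p = 3.76e-07). Smc2 (Entrez gene 14211), the core ATPase of condensin, stood at 50.8, 51.9 and 49.8 CPM in control and 68.6, 60.5 and 70.4 CPM with PDGF-DD (edgeR log2 fold change 0.39 with SE 0.05 and adjusted p = 2.69e-06). In both the gap between the groups was wider than the range of the controls. Smc4 (Entrez gene 70099), the other core ATPase and the most abundant of the 6 per length, stood at 101, 103 and 96.9 CPM in control and 117, 106 and 111 CPM with PDGF-DD, a smaller rise (edgeR log2 fold change 0.15 with SE 0.04 and adjusted p = 0.0112). Among the subunits of condensin I only, Ncaph and Ncapg rose by log2 fold changes of 0.46 and 0.41 and Ncapd2 by 0.14. The 95% interval of Ncaph, 0.32 to 0.60, began above the end of that of Ncapd2, 0.04 to 0.24, and above the end of that of Smc4 at 0.24. The calls of Smc4 and Ncapd2 were lost under 2 and 5 of 14 alternatives, with adjusted p-values up to 0.0775 and 0.118 and no lower than 0.00333 and 0.0161.

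Of 6 genes of the spindle and cytokinesis, 4 rose, all by less than 1.2-fold. Anln (Entrez gene 68743), which encodes anillin of the cleavage furrow and was the most abundant of the 6 per length, stood at 117, 119 and 118 CPM in control and 139.8, 127 and 146 CPM with PDGF-DD (edgeR log2 fold change 0.22 with SE 0.05 and adjusted p = 0.00031). Prc1 (Entrez gene 233406), the microtubule bundler of the midzone, stood at 62.6, 59.0 and 61.5 CPM in control and 71.9, 66.3 and 72.6 CPM with PDGF-DD (edgeR log2 fold change 0.20 with SE 0.05 and adjusted p = 0.00151). In both the lowest PDGF-DD library was replicate 2, and it was above all controls. Racgap1, a subunit of centralspindlin, rose by 0.18 on the log2 scale and the Aurora A activator Tpx2 by 0.13. The call of Tpx2 was lost under 3 of 14 alternatives, with the replicate block (by edgeR, adjusted p = 0.0525), in limma on TPM (adjusted p = 0.118) and without PDGF-DD replicate 3 (by edgeR, adjusted p = 0.0806), the lowest being 0.0113. Ect2, the exchange factor that activates RhoA at the furrow, missed the threshold (edgeR log2 fold change 0.13 with SE 0.06 and adjusted p = 0.132). Nusap1, a spindle-associated protein, stood at 17.7, 16.1 and 16.2 CPM in control and 15.0, 17.1 and 15.5 CPM with PDGF-DD, and its 95% interval of -0.23 to 0.08 ended below the start of that of Anln at 0.13.

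The transcription factors of this programme rose, one of them more than any other of the 48 genes. Mybl2 (Entrez gene 17865), which encodes B-MYB, stood at 26.8, 23.7 and 24.0 CPM in control and 38.9, 36.8 and 39.3 CPM with PDGF-DD (edgeR log2 fold change 0.62 with SE 0.06 and adjusted p = 1.02e-08). All PDGF-DD libraries were far above all control libraries. The 95% interval of Mybl2, 0.50 to 0.75, began above the point estimate of every other gene of the 48. Foxm1 (Entrez gene 14235), the forkhead factor that acts on late mitotic genes and the most abundant of these 3 per length, stood at 54.3, 47.8 and 50.8 CPM in control and 61.3, 62.8 and 60.8 CPM with PDGF-DD (edgeR log2 fold change 0.27 with SE 0.05 and adjusted p = 0.000106). Mki67, which encodes the proliferation marker Ki-67, rose by a log2 fold change of 0.22 (by edgeR, adjusted p = 0.000333).

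**Figure D2:**
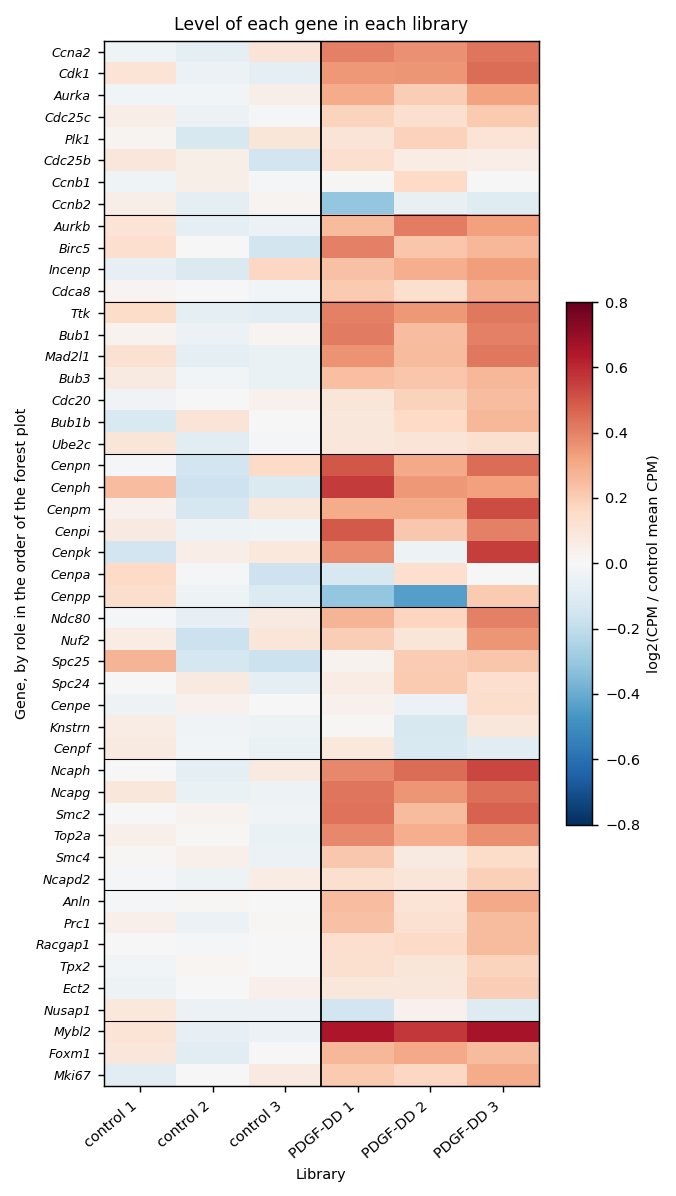
Level of each of the 48 genes in each of the 6 libraries, as log2 of CPM over the mean of the control libraries (colour). Mybl2 is the darkest row in the PDGF-DD libraries, and Ccnb2 is below its control mean in all of them.

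For 16 of the 17 genes that did not pass the 95% interval ended below 0.49, the median log2 fold change of the DNA replication genes described below, and for 12 it ended below 0.3. Only the interval of Cenpk reached beyond 0.49. In 3 of the 17, Plk1, Cdc25c and Ect2, every PDGF-DD library was nevertheless above every control library, and of the 31 that rose only Nuf2 had overlapping groups.

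Within a group the 48 genes tended to be high or low in the same libraries. PDGF-DD replicate 3 was above the mean of its group for 37 of the 48 genes and PDGF-DD replicate 2 for 11. Over all 13270 tested genes the numbers for these libraries were 6688 and 6710. In control, replicate 1 was above the group mean for 31 of the 48 and replicate 2 for 14, against 6211 and 6782 of all tested genes. The median deviation from the group mean ran from -0.05 to 0.05 on the log2 scale over the 6 libraries, while that of all tested genes ran from -0.01 to 0.00. Without PDGF-DD replicate 3, the highest library, 25 of the 48 genes rose, and all 25 were among the 31. Without control replicate 1 it was 33, of which 31 were shared. Leaving out a library changes the test for all genes. These counts therefore do not show that the change is particular to the 48.

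Promoter sequences were searched for the elements named above. Promoters of 300 bases (250 before and 50 after the start) from RefSeq on GRCm38.p6 matched 40 of the 48 genes, some with more than 1 start, giving 45 promoters. Aurkb, Ccna2, Cdc25c, Foxm1, Incenp, Smc4, Spc24 and Tpx2 had no entry. CHR was searched as TTTGAA or with a central C as TTCGAA. The CCAAT box that binds NF-Y was searched by its own letters, and E2F sites as TTGGCGC or the variants TTCCCGC and also TTCGCGC and lastly TTGCCGC. Both strands were read, and an E2F match that begins with TTGG can overlap a CCAAT box. At least 1 CHR was found in 27 of 40 genes (67.5%), against 16.5% of 10570 tested genes with an entry. A CCAAT box was found in 30 (75.0%, against 43.0%), both elements in 25 (62.5%, against 7.0%) and an E2F match in 11 (27.5%, against 19.2%). For 39 DNA replication genes a CHR was found in 17.9% and an E2F match in 66.7%. These shares depend on the window: in the 150 bases before the start alone, the mitotic genes held a CHR in 32.5% (7.65% of tested genes), both elements in 30.0% (2.38%) and an E2F match in 17.5% (11.3%), and the replication genes held a CHR in 7.69% and an E2F match in 35.9%. Of the 30 promoters with a CHR, 26 had one within 50 bases of the start, on either side of it. A match is a description of letters and not a binding site.

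The following stretches are the 120 bases before the start, on the gene's strand, with CHR and CCAAT letters of either strand in capitals (TTCAAA is the reverse complement of TTTGAA, whereas ATTGG is that of CCAAT). Cdk1, Bub3 and Top2a are shown as genes that rose clearly, Cdc20 as a smaller rise, Ube2c and Ccnb1 as genes that did not pass, and Mybl2 as the largest rise; Cdc20, Top2a, Ccnb1 and Mybl2 were picked for display after their values were seen. In Mybl2 the capitals mark instead a match to the E2F letters when the last C may also be G, a wider search added after seeing the data.
Cdk1, chr10:69352913-69353032, minus strand: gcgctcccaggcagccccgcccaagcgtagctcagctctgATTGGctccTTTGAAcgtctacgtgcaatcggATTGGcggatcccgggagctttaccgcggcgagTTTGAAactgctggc
Bub3, chr7:131560250-131560369, plus strand: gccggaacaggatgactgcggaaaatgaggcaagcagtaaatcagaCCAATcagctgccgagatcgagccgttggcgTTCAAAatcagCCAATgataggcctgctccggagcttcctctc
Top2a, chr11:99024190-99024309, minus strand: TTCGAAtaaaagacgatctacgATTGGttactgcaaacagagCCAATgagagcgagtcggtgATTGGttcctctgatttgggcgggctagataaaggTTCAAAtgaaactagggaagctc
Cdc20, chr4:118437344-118437463, minus strand: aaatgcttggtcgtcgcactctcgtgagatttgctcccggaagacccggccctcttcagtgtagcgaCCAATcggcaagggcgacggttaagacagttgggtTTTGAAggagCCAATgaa
Ube2c, chr2:164769809-164769928, plus strand: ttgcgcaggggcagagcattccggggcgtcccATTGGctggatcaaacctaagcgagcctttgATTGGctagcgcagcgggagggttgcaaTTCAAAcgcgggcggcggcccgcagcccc
Ccnb1, chr13:100786487-100786606, minus strand: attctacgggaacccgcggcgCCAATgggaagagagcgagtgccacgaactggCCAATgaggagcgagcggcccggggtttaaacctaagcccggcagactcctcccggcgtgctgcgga
Mybl2, chr2:163054515-163054634, plus strand: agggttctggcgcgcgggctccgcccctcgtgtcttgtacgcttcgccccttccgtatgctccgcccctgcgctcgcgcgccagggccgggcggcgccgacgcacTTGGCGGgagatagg

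Cdk1, Bub3, Top2a, Cdc20 and Ube2c each carry CHR letters within 50 bases of the start and at least 2 CCAAT boxes in this stretch, whether or not their transcripts rose. Ccnb1 shows 2 CCAAT boxes and no match to the CHR letters searched, and Mybl2 shows a match to neither element. Other forms of the CHR were not searched, and the Ccnb1 stretch holds the letters tttaaa between its CCAAT boxes and the start. Over the 40 genes, 18 of the 27 with a CHR match rose, with a median log2 fold change of 0.21. Of the 13 without a match to the letters searched 7 rose, with a median of 0.30. Of the 11 genes with an E2F match 8 rose, with a median of 0.38, and of the 29 without one 17 rose, with a median of 0.20. By the wider E2F letters, which Mybl2 matches, 12 of 17 genes with a match rose, with a median of 0.32. Of the 23 without a match to the wider letters 13 rose, with a median of 0.18. These splits were made after the values were seen and were not tested.

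**Figure D3:**
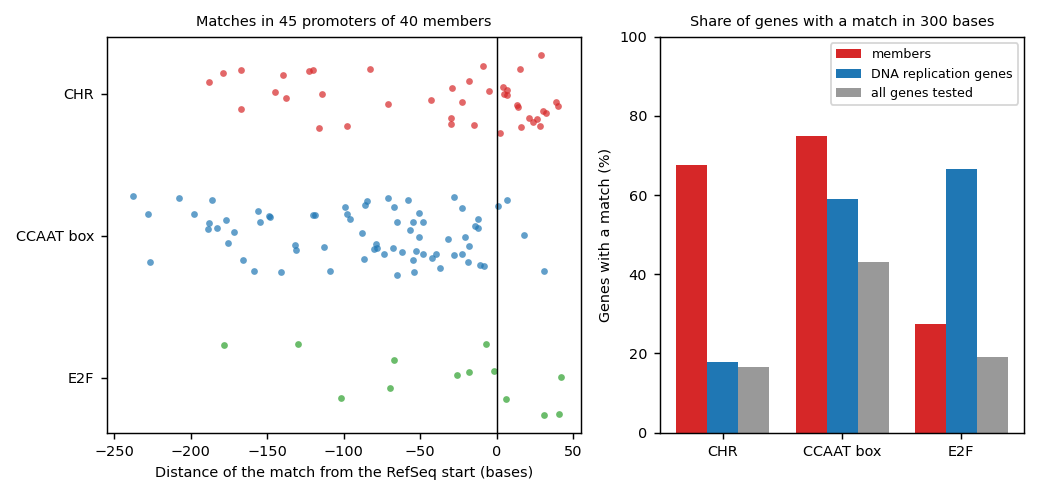
Left, distance of each CHR, CCAAT box and E2F match from the RefSeq start in 45 promoters of 40 of the 48 genes; right, percentage of genes with a match in 300 bases for these genes, DNA replication genes and all genes tested. CHR stands at 67.5%, 17.9% and 16.5% and E2F at 27.5%, 66.7% and 19.2%.

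Other genes of mitosis, from lists chosen with earlier results of these data known, are given for comparison, with levels as mean ± SD of 3 libraries. Of 35 other kinetochore genes 19 rose and 1 fell, with a median log2 fold change of 0.23. The largest rise among these was that of Trip13, the ATPase that recycles MAD2, from 11.8 ± 0.564 to 18.4 ± 0.390 CPM (edgeR log2 fold change 0.64 with SE 0.07 and adjusted p = 1.17e-07). Zwint, Zw10 and Spdl1, which act in tethering dynein to the kinetochore, rose by 0.29, 0.46 and 0.56 on the log2 scale, and the microtubule plus-end protein gene Clasp2 fell (edgeR log2 fold change -0.29 with SE 0.05 and adjusted p = 3.05e-05). Among 30 other mitotic regulators 19 rose and 0 fell (median 0.24). Fbxo5, which encodes the APC/C inhibitor EMI1, rose from 12.4 ± 0.133 to 19.8 ± 0.736 CPM (edgeR log2 fold change 0.68 with SE 0.07 and adjusted p = 2.96e-08), and Kpna2, Cdc25a and Cep55 had log2 fold changes of 0.34, 0.46 and 0.48.

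Of 12 mitotic kinesins 7 rose and 0 fell (median 0.23), the largest log2 fold change being that of Kif15 with 0.41. Kif11, the motor that separates spindle poles, rose by 0.36. Centrosome genes gave 9 rises among 16 and 0 falls (median 0.21), with Cep152, Plk4 and Sass6, which act in centriole duplication, at 0.48, 0.32 and 0.34. The 3 further condensin subunits, those of condensin II, included 2 that rose, Ncapg2 by 0.40 and Ncapd3 by 0.34.

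Of 16 APC/C genes 2 rose and 2 fell, with a median log2 fold change of 0.06, both shares being below those of all tested genes (19.1% and 17.4%). The rises were those of Ube2s, a ubiquitin-conjugating enzyme of the complex, by 0.28 and Cdc26 by 0.21. Those that fell were Anapc2 with a log2 fold change of -0.11 (by edgeR, adjusted p = 0.0333) and Anapc10 with -0.22 (by edgeR, adjusted p = 0.0339), and the number that fell was between 0 and 2 under the alternatives. Among 16 cohesin and separase genes 7 rose and 0 fell (median 0.09), of which Cdca5, which encodes sororin, changed most (edgeR log2 fold change 0.63 with SE 0.10 and adjusted p = 1.26e-05). The separase gene Espl1 rose by 0.29. In the lists with 0 falls, the numbers lower at an unadjusted p under 0.05 were 0 for the mitotic regulators, kinesins and centrosome genes and 0 for cohesin, DESeq2 called 0 lower in each, and limma on TPM called 1 cohesin gene lower.

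Of 18 E2F, DREAM and MuvB factors, whose binding was not measured here, 10 rose and 3 fell, with a median log2 fold change of 0.21. The share that fell is near the 17.4% of all tested genes that fell. E2f8 rose from 17.2 ± 0.354 to 27.7 ± 2.82 CPM (edgeR log2 fold change 0.68 with SE 0.07 and adjusted p = 4.46e-08). E2f6 and E2f1 rose by 0.38 and 0.30 on the log2 scale, and the dimer partner Tfdp1 rose by 0.37. The pocket protein gene Rbl1 (p107), chosen after its value was seen, rose by 0.35. Its relative Rbl2 (p130), the main pocket protein of DREAM in resting cells, fell from 24.4 ± 2.01 to 19.1 ± 1.64 CPM (edgeR log2 fold change -0.35 with SE 0.08 and adjusted p = 0.000565). Tfdp2 and Rb1, the retinoblastoma gene, fell, with log2 fold changes of -0.24 and -0.18 (by edgeR, adjusted p = 0.00131 and 0.0453), and over the alternatives 2 or 3 of the 18 fell.

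DNA replication genes, the list nearest in the cell cycle, had a higher median: 45 of 48 rose and 0 fell (0 also at an unadjusted p under 0.05, in DESeq2 and in limma), with a median log2 fold change of 0.49. Of the 48 mitotic genes only Mybl2 exceeded that median. Summed over each list, replication genes stood at 1970, 1884 and 1891 CPM in control and 2530, 2535 and 2606 CPM with PDGF-DD. The ratio of the replication sum to the mitotic sum within a library was 1.17 ± 0.014 in control and 1.33 ± 0.025 with PDGF-DD (SD, n = 3 each), and the groups did not overlap. No test was made of the difference between the lists.

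**Figure D4:**
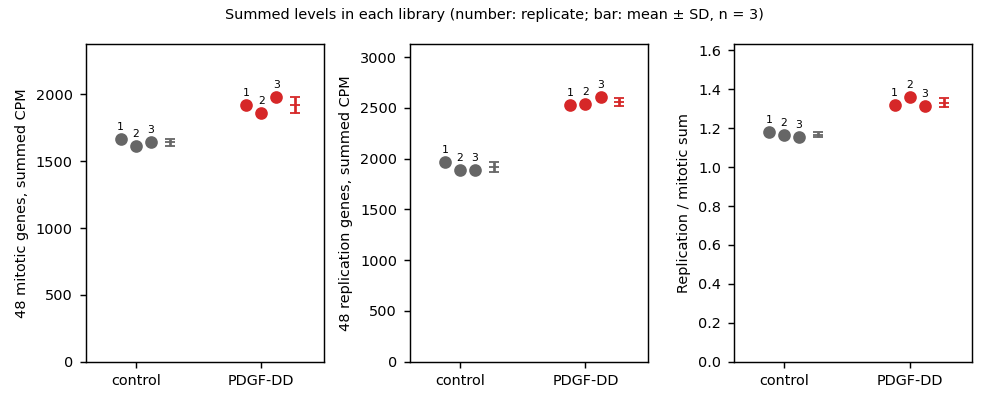
Summed CPM of the 48 mitotic genes, of 48 DNA replication genes and the ratio of both sums, in each of the 6 libraries (points, numbered by replicate) with the mean and SD of 3 libraries. The ratio lies between 1.15 and 1.18 in control and between 1.32 and 1.36 with PDGF-DD.

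Of the 48 genes, 24 belong to the list of G2/M phase genes commonly used to score single cells, with a median log2 fold change of 0.19, and 16 of these rose. The 24 outside it had a median of 0.28, and 15 rose. Of the 30 genes of that phase list that are not among the 48, 18 rose, with a median of 0.21.

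**Figure D5:**
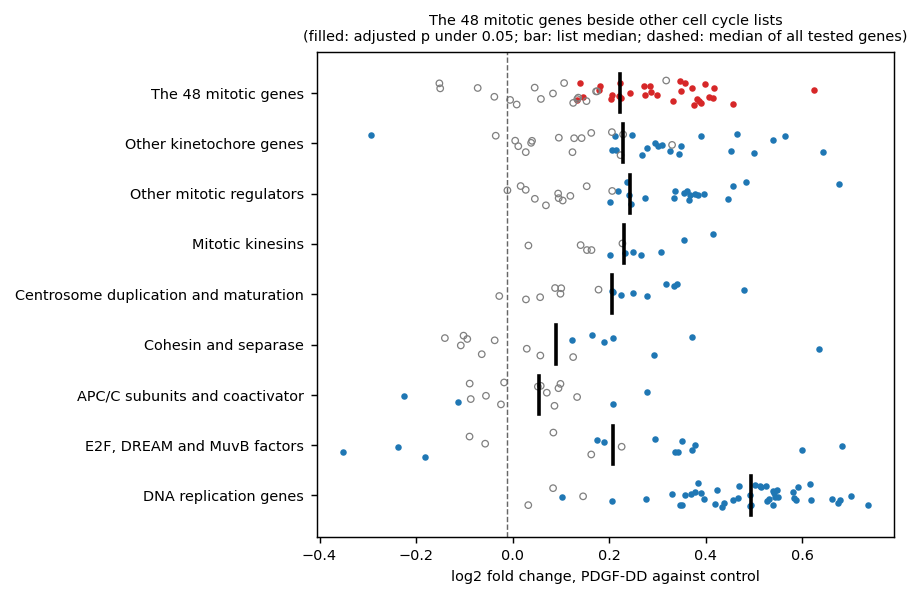
Log2 fold change of single genes (points; filled where they passed the test) in the 48 mitotic genes and 8 other lists, with each list's median as a bar and the median of all tested genes as a dashed line. The median of the DNA replication genes lies at 0.49, that of the 48 mitotic genes at 0.22 and that of the APC/C genes at 0.06.

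For 21 of the 48 genes the gene body overlaps that of another gene in RefSeq, and since the strand setting of the counting is not given, their counts could include reads of a neighbour. Gene bodies were compared from start to end with introns, and overlap of exons was not checked, so fewer of the 21 may be concerned. For 11 of them a protein-coding gene overlaps, namely for Cenpp (described above), Ccna2 (with Exosc9), Aurka (Cstf1), Cdc20 (Elovl1), Cenpk (Ppwd1), Cenpn (Cmc2), Ncapg (Lcorl), Nusap1 (Oip5), Prc1 (Rccd1), Anln (9530077C05Rik) and Foxm1 (Tex52). For the other 10, Cdc25c, Incenp, Top2a, Smc2, Smc4, Ncapd2, Ncaph, Tpx2, Ect2 and Mybl2, only small RNAs, long noncoding RNAs or pseudogenes overlap, among them the long noncoding RNAs Gm35347 in Ncaph and 1700125G22Rik in Ect2.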

How the data were processed

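Polyadenylated RNA of 6 libraries (3 control, 3 PDGF-DD) was read on a DNA nanoball sequencer, per the labels. The submitters' processing notes name RSEM 1.2.12, DESeq2 1.4.5, Bowtie2 2.2.5 and HISAT2 2.0.4 as tools, without roles, and mm9 as the build. For the annotation, any filter on reads and the strand setting: not given in the sources used here. Each deposited table holds estimated counts per gene made by the authors without normalization, FPKM scaled by the authors to transcript length and depth, and TPM scaled by the authors to transcript length and a fixed library total, per the file headers and values.

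Estimated counts, of which 31.9% to 32.7% per library are not whole, were rounded. filterByExpr in edgeR 4.0.16 (R 4.3.3) left 13270 genes. Libraries were scaled with TMM factors (0.995 to 1.005) and compared with the quasi-likelihood F test (robust, two-sided, Benjamini-Hochberg adjustment over all tested genes). The standard error is the log2 fold change divided by the root of F, and the 95% interval takes its quantile from a t distribution with edgeR's total degrees of freedom. Genes named in full are, in each role, the 2 called genes of smallest p and the gene of highest FPKM; from other lists up to 4 called genes with the smallest p and those that fell. The genes and lists were chosen with earlier results of these data known. Alternatives were other scalings and filters, DESeq2 1.42.0, limma 3.58.1 on log2(TPM + 0.5), a replicate block and leaving out each library. Genes of few counts, such as Cenpp, have the widest intervals. Promoters come from RefSeq on GRCm38.p6, which differs from the authors' build, so no measured value was joined to them by position.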

Additional observations from a re-analysis of the deposited data

How the results depend on the processing

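The number of the 48 genes that rose stayed between 29 and 32 under the other scalings, filters and tests and between 25 (without PDGF-DD replicate 3) and 33 (without control replicate 1) when 1 library was left out. The number that fell was 1 under upper quartile scaling and 1 among genes of at least 5 CPM (Ccnb2 in both), which also made 1 the number that fell in the G2/M phase list, and 0 otherwise. The median log2 fold change of the 48 genes lay between 0.19 and 0.26. Of the 31 calls 23 held under all 14 alternatives, and 6 further genes passed under at least 1 of them. Of 16 APC/C genes the number that fell was 1 under total count scaling, 0 in DESeq2, 0 in limma on TPM and 1 with the replicate block, and between 0 and 2 when 1 library was left out. In limma on TPM 1 cohesin gene fell. The cause of these changes was not tested. Signs changed for 3 genes that did not pass. The log2 fold change of Cenpa was -0.0115 under upper quartile scaling, -0.0054 among genes of at least 5 CPM and -0.0162 in limma on TPM, and between -0.0686 (without control replicate 3) and 0.0968 (without control replicate 1) when 1 library was left out, being -0.0491 without PDGF-DD replicate 2. That of Knstrn was 0.006 under total count scaling and 0.0113 in limma on TPM, and between -0.0482 (without PDGF-DD replicate 3) and 0.0625 (without PDGF-DD replicate 2) with 1 library left out, being 0.027 without control replicate 1. That of Cenpf lay between -0.0949 (without PDGF-DD replicate 1) and 0.0124 (without PDGF-DD replicate 2). The promoter shares in the shorter window, which leaves out the bases after the start, stand beside the main ones. E2F letters were found in 42.5%, against 34.1% of tested genes, when their last letter could also be G, a setting chosen after seeing the data. Replicate numbers are shared between the groups, and the labels do not say whether a shared number means shared material. The deviations of same-numbered libraries correlated at -0.10, -0.14 and -0.03. Because these deviations were taken from means of only 3 libraries, they cannot decide whether the libraries are paired. With the replicate block 30 of the 48 genes rose and 0 fell, all 30 among the 31.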
